A study of Mus musculus with 6 samples.

Results

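Of the 54281 genes counted in GLUTag cells, 10 carry the muscarinic acetylcholine receptors (Chrm1 to Chrm5) and the proteins that make, store, recapture or break down acetylcholine (Chat, Slc18a3, Slc5a7, Ache and Bche). They were taken by gene symbol through their Ensembl identifiers, and all 10 were found in the table. GLUTag is a mouse enteroendocrine cell line that secretes GLP-1, and 6 libraries of it were made with a kit that reads the 3′ end of polyadenylated RNA, and a count therefore reads a transcript whatever its length. Levels of different genes are set side by side on that basis, within the limit that the annotated 3′ ends set. Among the 10 genes this limit concerns Chrm4 and Chrm5 most, then Chrm2. For the other genes set beside them, these ends are not given. There was a single condition, in which cells had been grown for 48 h on 0.4% Matrigel with 1 g/L glucose and 10% FBS. Wells of plate 1 were at passage 23 (n = 3) and wells of plate 2 at passage 27 (n = 3). Passage and plate cannot be told apart, nothing in the labels makes the wells of a plate separate cultures, and p-values below therefore measure a spread that may be technical. The line is grown alone, without nerve endings, and has no treated or knockout arm against which these genes could be compared. Of the 5 receptor genes only Chrm3 was detected in every library, at 30.7 ± 4.00 CPM, the counts of a gene per M counts of its library (SD, n = 6). Of the 2 cholinesterase genes, Ache and Bche were both detected in every library at low levels, and the 3 genes for making and packaging acetylcholine had between 0 and 4 counts in all libraries together.

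Acetylcholine acts on ion channels of the nicotinic class and on muscarinic receptors, which are coupled to G proteins. M1, M3 and M5 act through Gq, which activates phospholipase C, releases calcium from intracellular stores and activates protein kinase C, whereas M2 and M4 act through Gi and Go, which lower cyclic AMP. In the gut, acetylcholine from vagal and enteric neurons is a known stimulus of GLP-1 release from L-cells. A cell that itself releases acetylcholine takes up choline through Slc5a7, joins it to acetyl-CoA by choline acetyltransferase (Chat) and loads the product into vesicles through Slc18a3. Acetylcholinesterase (Ache) and butyrylcholinesterase (Bche) hydrolyse it.

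Libraries held from 21399987 to 36488198 counts in all. Where a gene had 0 counts, its true level could reach 3 counts, or 0.0822 to 0.14 CPM by library, as far as counting error goes. A level of 1 CPM was reached in each library by 12360 genes, and 15271 genes (28.1%) had over 3 counts in each library. Of the markers of the labelled cell type, all 9 enteroendocrine genes were above 1 CPM in each library, led by the glucagon gene Gcg (3416 CPM) and the hormone gene Cck (1080 CPM). The plate 2 library of middle total stood apart from the others. Of 5031 genes with a mean of 30 CPM or more, 354 fell over 2-fold short of the mean of its plate's remaining libraries, against 3 or fewer in any other library compared in the same way. In the other direction, 49 genes were over 2-fold higher in the plate 2 library of highest total, against 4 or fewer in any other library.

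A window of 250 bases before 1 transcript start was read from RefSeq (GRCm38.p6) for 9 of the 10 genes. A gene can have several starts: the window of Chrm3 lies within the RefSeq gene, which reaches 10361062, and that of Ache within the GENCODE gene. Shown are the windows of the 2 genes above 1 CPM in every library (Chrm3 and Ache), of a receptor gene with at most 2 counts (Chrm4) and of a transporter gene at 0 throughout (Slc5a7). The Chrm3 window is chr13:10360804-10361053 on the minus strand, that of Ache chr5:137288004-137288253 on the plus strand, that of Chrm4 chr2:91921939-91922188 on the plus strand and that of Slc5a7 chr17:54299035-54299284 on the minus strand. Capitals mark CG dinucleotides.
Chrm3: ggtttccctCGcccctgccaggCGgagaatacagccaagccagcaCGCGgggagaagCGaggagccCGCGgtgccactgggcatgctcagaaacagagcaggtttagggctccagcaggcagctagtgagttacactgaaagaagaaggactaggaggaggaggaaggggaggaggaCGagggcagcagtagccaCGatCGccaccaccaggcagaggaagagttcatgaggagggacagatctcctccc
Ache: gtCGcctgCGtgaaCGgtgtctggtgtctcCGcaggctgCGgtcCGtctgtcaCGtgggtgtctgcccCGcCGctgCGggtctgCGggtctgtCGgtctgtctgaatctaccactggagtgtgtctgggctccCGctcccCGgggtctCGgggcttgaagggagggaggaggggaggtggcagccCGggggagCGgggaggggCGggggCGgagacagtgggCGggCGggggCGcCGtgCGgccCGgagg
Chrm4: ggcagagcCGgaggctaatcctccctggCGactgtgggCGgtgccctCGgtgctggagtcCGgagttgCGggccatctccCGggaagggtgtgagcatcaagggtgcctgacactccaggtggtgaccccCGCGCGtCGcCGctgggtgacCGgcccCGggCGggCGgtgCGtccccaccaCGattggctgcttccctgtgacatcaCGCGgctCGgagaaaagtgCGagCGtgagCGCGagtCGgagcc
Slc5a7: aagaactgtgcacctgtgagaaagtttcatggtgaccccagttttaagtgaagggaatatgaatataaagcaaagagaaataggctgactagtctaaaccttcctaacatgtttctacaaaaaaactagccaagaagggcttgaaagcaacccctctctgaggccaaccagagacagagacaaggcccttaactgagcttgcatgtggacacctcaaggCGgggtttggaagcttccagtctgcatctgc
The Ache window holds 25 CG dinucleotides and the Chrm4 window 26, which is more than in 89.3% and 90.4% of 32851 windows of that length. The Chrm3 window holds 10 and the Slc5a7 window 1, against a median of 6. The window of Bche, detected in each library, holds 8, and that of Slc18a3, with 4 counts in all, holds 21. TATAAA or its reverse complement TTTATA stands in 12.4% of windows and, among these genes, in that of Slc5a7. These are matches of letters and do not show that a factor binds.

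Among the receptors, Chrm3 (ENSMUSG00000046159, GRCm38, chr13:9875486-10360847, minus strand, protein coding, 4 transcript models) encodes M3, the subtype of smooth muscle and glands. It had 644, 671 and 623 counts in plate 1 replicates 1, 2 and 3, and 905, 1176 and 1036 counts in the plate 2 libraries of lowest, middle and highest total. In CPM these were 26.8, 29.6 and 29.1 on plate 1 and 32.2, 38.0 and 28.4 on plate 2. The highest value was that of the library that stood apart, without which the mean was 29.2 CPM, and the other 5 lay within 26.8 to 32.2 CPM. Ordered by mean level, Chrm3 was at rank 4967 among the 12360 genes that reached 1 CPM in each library. Its coefficient of variation over the 6 libraries was 13.0%, above the 3.50% that counting alone would give and below the median of 19.3% among 2727 genes with a mean of 20 to 45 CPM.

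The other 4 receptor genes were at or under the limit of detection. Chrm1, which encodes the M1 receptor of cortex and ganglia, had 3 counts in the plate 2 library of middle total (0.0970 CPM) and 0 in the other 5. Chrm2, which encodes the M2 receptor of the heart, had 1 count in the plate 2 library of lowest total (0.0356 CPM) and 0 in the other 5. Chrm4, the other receptor coupled to Gi and Go, had 2 counts in that same library (0.0712 CPM) and 0 elsewhere. Chrm5, the third receptor coupled to Gq, had 0 counts in all 6 libraries. Of 5061 counts for muscarinic receptors, 5055 were therefore of Chrm3 and 6 of the other 4 genes. In the library where Chrm3 had fewest counts, it had 207.7 times the 3 counts that a count of 0 allows for Chrm5. This covers counting error only and is no bound on the level of Chrm5. The GENCODE M21 model of Chrm5 stops at the stop codon, and whether reads past it were missed was not tested.

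**Figure D1:**
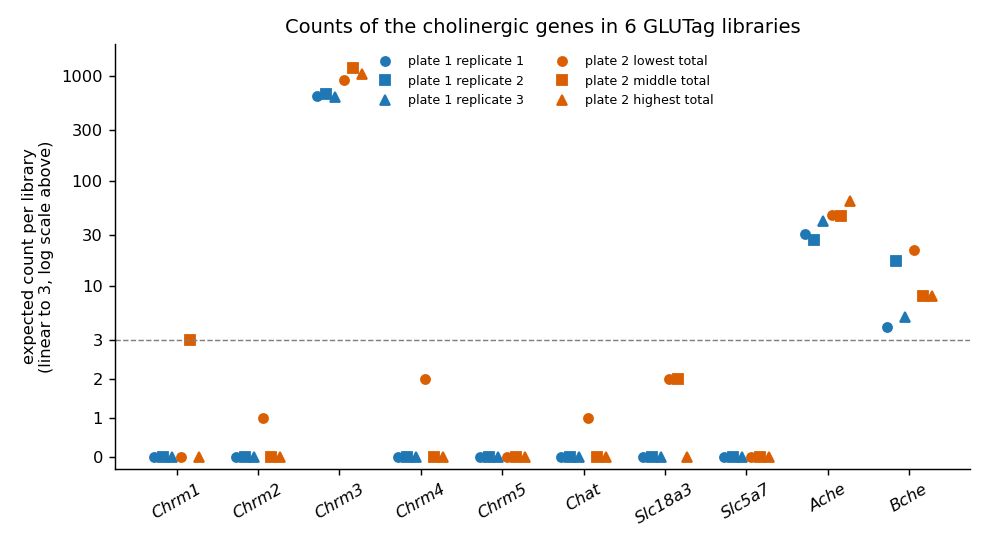
Expected counts of the 10 genes (horizontal axis) in each of the 6 libraries (symbols; blue for plate 1, orange for plate 2), on a vertical axis that is linear up to 3 counts and logarithmic above; the dashed line marks 3 counts. Chrm3 lies between 623 and 1176 counts, Ache between 27 and 64 and Bche between 4 and 22, while the other 7 genes lie at 0 to 3 counts in each library.

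Chrm3 was set against each other receptor gene within a library, as the difference of log2(CPM + 1), by exact two-sided permutation of the signs of the 6 differences. The lowest p that 6 libraries can reach in this test is 0.03125. The log2 difference was 4.96 ± 0.13 to Chrm1, 4.97 ± 0.17 to Chrm2, 4.96 ± 0.17 to Chrm4 and 4.98 ± 0.17 to Chrm5 (SD, n = 6), and Chrm3 was higher in 6 of 6 libraries each time. The exact p was 0.03125 in each of these 4 comparisons. With Benjamini-Hochberg adjustment over the 14 pairs of genes compared it was 0.0875, so none passed 0.05. Since any gene found in each library would give the same p against a gene near 0, this p says no more than that Chrm3 was detected 6 times, and the size of the difference is set by the pseudocount of 1 CPM. For the 6 pairs among Chrm1, Chrm2, Chrm4 and Chrm5 the exact permutation p was 1, but with both genes at 0 in 4 or 5 of the 6 libraries this test cannot tell them apart, and their order is not resolved at this depth.

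How far a transcript is annotated past its stop codon can limit what a 3′ library counts. In GENCODE M21, Chrm4 (chr2:91927249-91928688, plus strand) and Chrm5 (chr2:112479171-112480769, minus strand) each have 1 transcript model that stops at the stop codon, of 1440 and 1599 bases. RefSeq carries Chrm4 1147 bases and Chrm5 438 bases farther in the 3′ direction. The models of Chrm1, Chrm2 and Chrm3 hold 4272, 3804 and 1743 bases past the stop codon. RefSeq ends Chrm3 at the same base and carries Chrm1 19 bases and Chrm2 224 bases farther. Of 742 coding genes without a model that goes past the stop codon, 5.39% had over 3 counts in every library and 77.9% were at 0 in all, against 60.3% and 19.1% of 21063 coding genes with such a model. These groups of genes were not matched in any other respect, and how much of the contrast comes from annotation was not tested. The part of the annotated end in the low counts of Chrm4 and Chrm5 was not tested. That of the farther RefSeq end of Chrm2 in its count was not tested either. The authors counted on release M23 of the annotation, which was not used here.

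**Figure D2:**
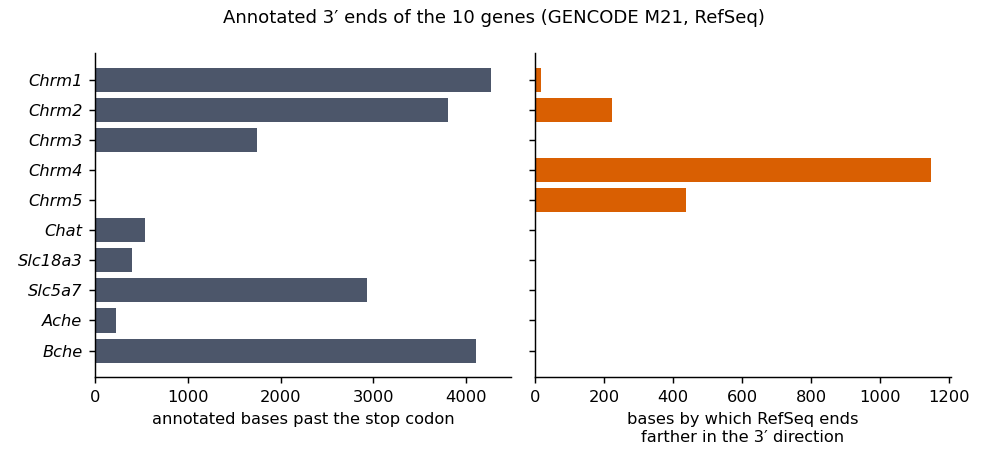
Left, bases of the GENCODE M21 models past the stop codon for each of the 10 genes (horizontal axis in bases); right, bases by which the RefSeq gene ends farther in the 3′ direction. Chrm4 and Chrm5 have 0 bases on the left and 1147 and 438 bases on the right, and Chrm2 has 3804 on the left and 224 on the right.

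Within the span of Chrm3, the annotation also places Gm47405, Gm47404 and Gm47411 on its strand, at 1.54, 1.33 and 0.858 CPM on average, and Gm26861 on the opposite strand with at most 7 counts in a library. Whether the counting used strand is not given in the sources used here. Each of these genes was on average below the 30.7 CPM of Chrm3. Their part in the counts of Chrm3 was not tested.

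The genes for making and packaging acetylcholine were close to empty. Chat (chr14:32408203-32465989, minus strand) had 1 count in the plate 2 library of lowest total (0.0356 CPM) and 0 in the other 5. Slc18a3, the vesicular acetylcholine transporter, which lies inside the span of Chat on the same strand (chr14:32462438-32464850), had 2 counts in the plate 2 libraries of lowest and of middle total (0.0712 and 0.0647 CPM) and 0 in the other 4. Slc5a7, the high-affinity choline transporter (chr17:54273590-54299034, minus strand), had 0 counts in all 6 libraries. All counts of these genes came from plate 2, at depths where each is below 3 counts, and none could be told from 0 in a single library. Both Chat and Slc5a7 have annotated bases past the stop codon, 542 and 2928 of them. The pairs among the 3 genes gave exact permutation p of 0.5 to 1, or 1 after Benjamini-Hochberg adjustment, with both genes at 0 in 4 or 5 of the 6 libraries, so their order is not resolved either.

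Tuft cells are the epithelial cells of the gut known to contain Chat, and neurons are the other source of acetylcholine there. Of 7 tuft cell markers 2 were above 3 counts in every library, Dclk1 (67.2 CPM) and Avil (2.08 CPM), whereas the channel gene Trpm5 had 0.0595 CPM and the cytokine gene Il25 was at 0, and the list summed to between 62.3 and 77.6 CPM. Of 6 neuron markers 5 were above 1 CPM in every library, among them Map2 (241 CPM), Elavl4 (86.3 CPM) and Snap25 (57.8 CPM), while Rbfox3, a marker of mature neurons, had 0.328 CPM; their sum lay between 416 and 488 CPM. Endocrine cells share many of these neuronal genes. Between plates 0 of the 5 neuron markers and 0 of the 2 tuft cell markers tested passed an adjusted p of 0.05 in edgeR's quasi-likelihood test, as 0.185% of all genes tested did. An unadjusted p under 0.05 was found for 3 of the 5 neuron markers, Tubb3, Elavl4 and Prph, at log2 fold changes of -0.44, -0.30 and 0.49, and for 0 of the 2 tuft cell markers, against 16.1% of all genes.

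Of the cholinesterases, Ache (ENSMUSG00000023328, chr5:137287519-137294466, plus strand, 9 transcript models) had 31, 27 and 41 counts in plate 1 replicates 1, 2 and 3 and 47, 46 and 64 counts in the plate 2 libraries of lowest, middle and highest total. These were 1.29, 1.19 and 1.92 CPM on plate 1 and 1.67, 1.49 and 1.75 CPM on plate 2, with a mean of 1.55 ± 0.279 CPM (SD, n = 6). Ache thus stood near the lower edge of the same 12360 genes, at rank 12300. Its coefficient of variation was 17.95%, where counting alone would give 15.6%.

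Bche (ENSMUSG00000027792, chr3:73635808-73708415, minus strand), the enzyme that also circulates in plasma, was lower and more uneven. It had 4, 17 and 5 counts on plate 1 and 22, 8 and 8 counts on plate 2, in the same order of libraries, or 0.167, 0.751 and 0.234 CPM and 0.783, 0.259 and 0.219 CPM. A high library stood on each plate, so that the groups overlapped and the coefficient of variation of 70.8% was above the 31.0% that counting alone would give. In each library Ache was the higher enzyme, with ratios to Bche of 7.75, 1.59 and 8.20 on plate 1 and 2.14, 5.75 and 8 on plate 2. The mean difference was 0.88 ± 0.36 on the log2(CPM + 1) scale (SD, n = 6, range 0.32 to 1.24; exact two-sided permutation p = 0.03125, or 0.0875 after Benjamini-Hochberg adjustment over 14 pairs). Its size depends on the pseudocount, which at 0.1 CPM gave 1.88 and at 5 CPM gave 0.28. The membrane anchor of Ache, Prima1, had 0.340 CPM and the collagen tail Colq 0.0347 CPM, and neither was above 3 counts in every library.

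**Figure D3:**
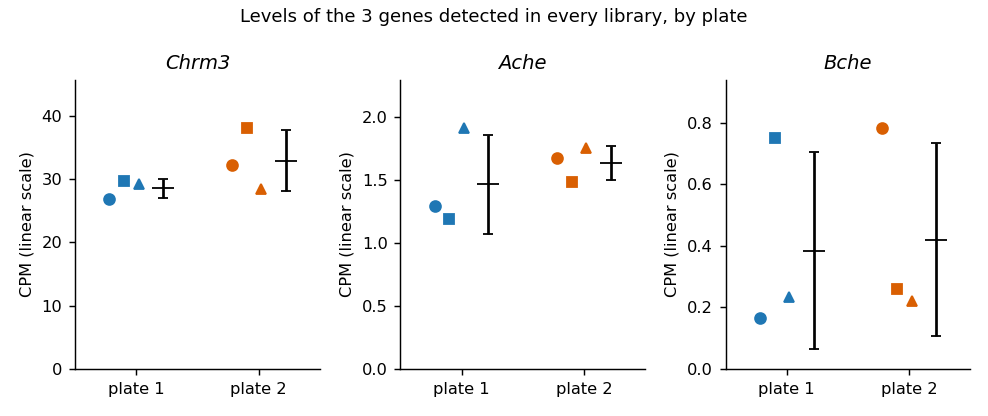
CPM (vertical axes, linear, from 0) of Chrm3, Ache and Bche in the 3 libraries of plate 1 (blue; circle, square and triangle for replicates 1, 2 and 3) and of plate 2 (orange; circle, square and triangle for lowest, middle and highest total); bars show the mean and SD of each plate. The plates overlap for all 3 genes, with Chrm3 at 28.5 ± 1.49 CPM on plate 1 and 32.9 ± 4.86 CPM on plate 2.

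The plates were compared to see whether these levels held between passages. With edgeR's quasi-likelihood test after TMM scaling, 29 of 15669 tested genes (0.185%) passed an adjusted p of 0.05, 2 higher and 27 lower on plate 2. With the replicate number in the column names as a block, 5 genes passed, 4 of them among the 29. At an unadjusted p under 0.05 there were 2520 genes (16.1%) in the fit without the block. The number of calls and their direction depended on the processing. With the total count as the only scaling, 1411 genes were higher and 71 lower on plate 2. Leaving out 1 library gave 0 to 1911 calls. Of the 10 cholinergic genes 2 had enough counts to be tested, Chrm3 and Ache, and 0 of them passed, at unadjusted p of 0.689 and 0.749 from edgeR. At 28.5 ± 1.49 CPM on plate 1 and 32.9 ± 4.86 CPM on plate 2 (SD, n = 3 each), Chrm3 had a log2 fold change of -0.06 (SE 0.15, Benjamini-Hochberg adjusted p = 0.889 from edgeR). Ache was at 1.47 ± 0.392 and 1.64 ± 0.136 CPM (SD, n = 3 each), with a log2 fold change of -0.10 (SE 0.31, adjusted p = 0.915 from edgeR). Neither direction held in all settings. With the total count alone the log2 fold changes were 0.21 and 0.16 (adjusted p = 0.349 and 0.748 from edgeR), and the median of all genes moved from 0.03 to 0.30. With TMM scaling kept, Chrm3 was at 0.035 without the plate 2 library of highest total. Ache was at 0.11 without plate 1 replicate 3. Bche did not pass the filter on low counts. Without that filter it gave -0.15 (SE 0.76, adjusted p = 0.949 from edgeR), in fits without 1 library where it passed the filter it ranged from -0.54 to 0.15, and it had 0.384 ± 0.320 CPM on plate 1 and 0.420 ± 0.315 CPM on plate 2 (SD, n = 3 each).

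The proteins that act below the receptor were read from lists. Of 20 genes of the Gq and phospholipase C route, 18 had over 3 counts and 14 at least 1 CPM in every library. The highest were Gna11 (175.2 CPM) and Gnaq (120.0 CPM), the α subunits that M3 couples to, and the protein kinase C gene Prkcb (134.8 CPM), and the lowest was Gna14 (0.0123 CPM). Between plates 17 of them were tested and 0 passed, with a median log2 fold change of 0.20 against 0.03 for all genes. An unadjusted p under 0.05 from edgeR was found for 4 of the 17, against 16.1% of all genes tested. Nearest to the threshold was Gna11, at a log2 fold change of -0.85 (SE 0.14, adjusted p = 0.0563 from edgeR).

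Of 12 genes of the Gi and Go route, 10 had over 3 counts and 9 at least 1 CPM in every library. The α subunit gene Gnai2 (632 CPM) led, followed by the β and γ subunit genes Gnb1 (226 CPM) and Gng2 (134.9 CPM), and the potassium channel gene Kcnj5, whose product opens on Gβγ, was lowest at 0.0989 CPM. In the same libraries Chrm2 and Chrm4, the receptors of this route, were at 0 to 2 counts. These G proteins serve many other receptors too. Among 13 receptor kinases, arrestins and RGS proteins, which end or dampen receptor signals, 12 had over 3 counts and 11 at least 1 CPM in every library. Rgs4 (107.8 CPM), which speeds the turn-off of Gq and Gi, Arrb2 (89.6 CPM) and Grk2 (48.7 CPM) were highest and Rgs5 (0.0289 CPM) lowest. In neither of these 2 lists did a gene pass between plates, of 10 and 12 tested, with median log2 fold changes of -0.15 and 0.11 and 1 and 0 genes at an unadjusted p under 0.05 from edgeR (16.1% of all genes).

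The substrates of Chat, choline and acetyl-CoA, also serve lipid synthesis. Of 15 genes for choline entry and acetyl-CoA, 8 had at least 1 CPM in every library, led by the citrate lyase gene Acly (190.3 CPM) and the choline kinase genes Chka (64.03 CPM) and Chkb (43.8 CPM), which send choline to phospholipids, and the organic cation transporter gene Slc22a2 was lowest (0.0216 CPM). Of 8 transcription factor genes tied to the cholinergic fate, 3 had at least 1 CPM in every library, Isl1 (517 CPM), Mnx1 (36.1 CPM) and Rest (2.32 CPM), a repressor of neuronal genes. Lhx8 and Gbx1 were at 0 in all libraries. Of the 9 and 3 genes of these lists that were tested between plates, 0 passed, with median log2 fold changes of 0.11 and -0.17 and 1 and 0 genes at an unadjusted p under 0.05 from edgeR (16.1% of all genes).

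The nicotinic class was present at a lower summed level than Chrm3. Its 16 subunit genes together had 11.4, 8.59 and 14.1 CPM on plate 1 and 17.3, 19.9 and 16.6 CPM on plate 2. Chrm3 alone was 2.35, 3.45 and 2.07 times that sum on plate 1 and 1.87, 1.92 and 1.71 times on plate 2, so that it exceeded the sum in 6 of 6 libraries and the ratio was lower in each plate 2 library than in any of plate 1. As libraries of a plate share their passage and the ratio was not planned as a test, none is given. Of the 16 subunits 2 had at least 1 CPM in every library, Chrnb2 (7.34 CPM) and Chrna3 (4.13 CPM), and 5 were at 0 throughout (Chrna6, Chrna10, Chrnd, Chrne and Chrng). Of 5 assembly proteins Ric3, a chaperone of these channels, was highest at 23.7 CPM. Of 6 subunits and 3 assembly proteins tested between plates, 0 passed and 0 had an unadjusted p under 0.05 from edgeR, against 16.1% of all genes, at median log2 fold changes of 0.45 and 0.23 against 0.03.

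**Figure D4:**
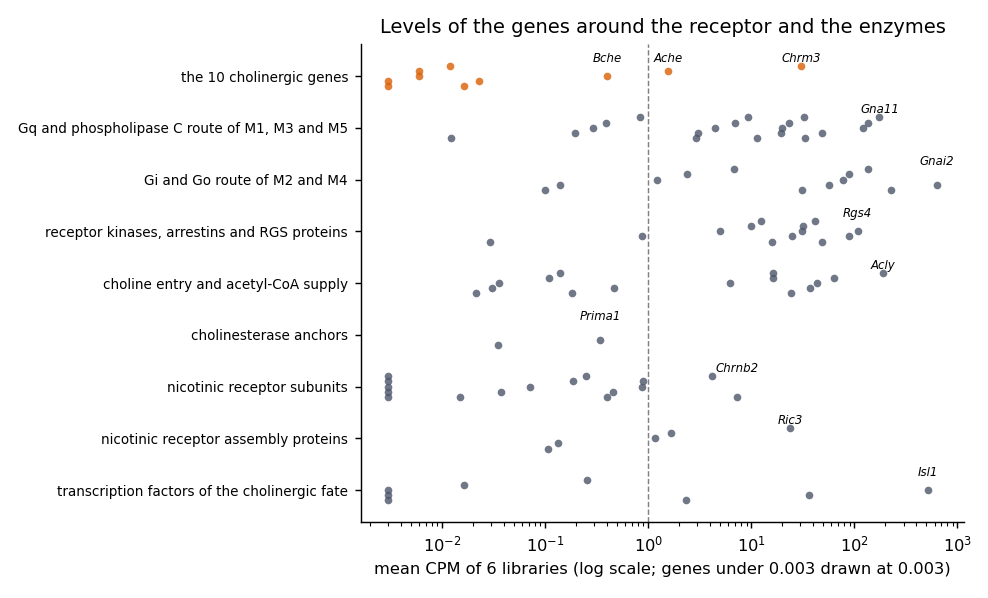
Mean CPM over the 6 libraries (horizontal axis, log scale; genes under 0.003 CPM drawn at 0.003) of the 10 cholinergic genes (orange) and of the genes of 8 lists around them (grey), 1 point per gene, with the highest of each list named and the dashed line at 1 CPM. Chrm3, Ache and Bche lie at 30.7, 1.55 and 0.402 CPM, apart from the other 7, and most points of the G protein lists lie to the right of the line.

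The level of Chrm3 across libraries was followed by many other genes. Among 8657 genes whose mean was 10 CPM or more, Pearson's r of log2(CPM + 1) with Chrm3 over the 6 libraries was highest for Srrd (0.997), Nacc1 (0.994) and Snx17 (0.994) and lowest for Dqx1 (-0.983), Rpap1 (-0.982) and Clrn3 (-0.968). Srrd had 14.3, 17.1 and 16.4 CPM on plate 1 and 20.9, 27.8 and 16.2 CPM on plate 2, with its highest value in the same library as Chrm3. With r over 0.9 there were 383 genes (4.42%), and the points share the library that stood apart, where Srrd, Nacc1 and Snx17 were highest and Dqx1, Rpap1 and Clrn3 lowest. These values describe 6 libraries and carry no test.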

How the data were processed

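RNA of 6 GLUTag wells was sequenced from the 3′ end (QuantSeq FWD). Per the submitters' processing notes and the study's methods, the authors trimmed reads with Trim Galore 0.6.4 and assigned them to GRCm38 transcripts with Salmon 1.5.1, without length correction. Expected counts per gene, without normalization, were deposited. Columns of plate 1 name replicates 1 to 3. Those of plate 2 are also numbered from 1, whereas the sample titles of plate 2 run on from plate 1, so its libraries are called lowest, middle and highest by total. Columns of the same number on both plates deviated together from their plate means (Pearson's r across 12360 genes, which are not independent: 0.134, 0.148 and 0.186). Those of unequal number gave -0.171 to -0.0354. Deviations from a plate mean cancel within the plate, so these negative values largely follow from the positive ones and are not separate evidence. What the number marks is not stated. A fit with it as a block was added after the data were seen, and its count is given beside the unblocked one. Positions are from GENCODE M21, which holds 54107 of the 54281 identifiers.

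CPM was computed on the total of each column (21399987 to 36488198 counts). For edgeR 4.0.16 (TMM, filterByExpr, robust quasi-likelihood fit, Benjamini-Hochberg adjusted p under 0.05), DESeq2 1.42.0 and limma-voom (limma 3.58.1), run in R 4.3.3, counts were rounded to whole numbers. Pairs of genes were compared within libraries with an exact sign-flip test on log2(CPM + 1), with adjustment over 14 pairs, in Python 3.11.15 with scipy 1.17.1. Libraries of a plate differed by more than sampling noise (chi-square per gene at least 10.2), so each was kept. Other scalings, filters, pseudocounts (0.1 and 5 CPM), tools and the omission of each library were the alternatives.

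The members and lists were chosen with earlier results of these data known. Named are all 10 members and, of each list, the 3 highest genes and those at 0 or the lowest, and the 3 genes most and least like Chrm3. Gna11 is also the gene of the lists nearest the plate threshold, Srrd is given per library, and Tubb3 and Prph are named for their unadjusted p; these were added after their values were seen. The value of 1 listed gene is not reported here. The other datasets and the secretion experiments of the study were not analysed here.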

Additional observations from a re-analysis of the deposited data

Results flagged for a closer look

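Of 60 gene levels that were looked at for a library far from the other 5, 7 had one by Dixon's criterion for 6 values at 95%. Each had 0 counts in the other 5 libraries, which meets the criterion by construction, so that the rate of about 1 in 20 that chance gives for measured values cannot be set beside this number. In the plate 2 library of lowest total these were Chrm2 at 0.0356 CPM, Chat at 0.0356 CPM and Chrm4 at 0.0712 CPM, from 1, 1 and 2 counts. In the plate 2 library of middle total they were Chrm1 at 0.0970 CPM and the cation transporter gene Slc22a2 at 0.129 CPM, from 3 and 4 counts. The collagen tail gene Colq stood at 0.208 CPM in plate 1 replicate 1, from 5 counts, and the macrophage gene Adgre1 at 0.0548 CPM in the plate 2 library of highest total, from 2 counts. Only Slc22a2 and Colq were above the 3 counts that a count of 0 allows.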

How the results depend on the processing

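Under other scalings the mean level was 30.7 to 32.3 CPM for Chrm3, 1.55 to 1.64 CPM for Ache and 0.404 to 0.422 CPM for Bche. When a library was left out, Chrm3 lay within 29.2 to 31.5 CPM, Ache within 1.48 to 1.62 CPM and Bche within 0.326 to 0.449 CPM. Leaving out 1 of 6 libraries cannot move the mean of any gene by its SD, so these ranges are no measure of stability. The number of genes called between plates with edgeR was 29 and depended on the processing. It was 1482 with the total count as the only scaling (4.79% of them lower on plate 2, against 93.1%), 545 without a filter on low counts, 579 with DESeq2 (73.4% lower) and 10 with limma-voom. Leaving out 1 library gave 0 to 1911 calls: 0 without plate 1 replicate 1 or the plate 2 library of lowest total (1611 and 2121 at an unadjusted p under 0.05), 2 and 6 without plate 1 replicates 2 and 3, 9 without the plate 2 library of highest total and 1911 without that of middle total. With total-count scaling the plate difference of Chrm3 (log2) changed sign to 0.21 and that of Ache to 0.16. Leaving out a library gave -0.22 (without the plate 2 library of middle total) to 0.035 (without that of highest total) for Chrm3 and -0.21 to 0.11 (without plate 1 replicate 3) for Ache; none passed in any setting. The cause was not tested. With the replicate block 5 genes were called, 4 of them among the 29, and it changed no call of Chrm3 or Ache, at log2 differences of -0.07 and -0.08. Counts under 4 in a library limit 7 of the 10 genes.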
